A study of Mus musculus with 8 samples.

Results

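The genes described here are the protein-coding mouse genes whose symbol is Zfp followed by a number and nothing else, from Zfp800 to Zfp999. GENCODE vM21 held 90 of them, and 88 were in at least 1 of the study's gene tables: 87 in the knockdown table, 87 in the overexpression table and 86 in both. Zfp853 was in the knockdown table alone and Zfp969 in the overexpression table alone, and Zfp831 and Zfp957 were not analysed here. In all, 17938 genes were listed for the knockdown and 18292 for the overexpression. The lowest mean value of a listed gene was 4.58 in the knockdown table and 4.71 in the overexpression table, so genes with fewer reads are in neither.

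Most of these genes encode KRAB zinc finger proteins. In such a protein an array of C2H2 zinc fingers binds a DNA sequence, and the KRAB domain recruits the corepressor Trim28, which brings in the histone H3 lysine 9 methyltransferase Setdb1, HP1 proteins and the NuRD complex. In embryonic stem (ES) cells this machinery is known for silencing endogenous retroviruses and other transposable elements, and the genes lie in tandem clusters that arose by duplication. Zscan4 is a family of SCAN-domain zinc finger genes expressed in the 2-cell embryo and, in ES cell culture, in a small and changing share of cells.

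The study sequenced mRNA of J1 cells, an established mouse ES cell line, in 4 groups of 2 libraries. KD Zscan4 cells carried a pSuper puro plasmid with a short hairpin RNA against Zscan4, and KD control cells were labelled as a random control of that knockdown. OE Zscan4 cells carried the Zscan4c coding region in pCMV-tag2, and OE control cells were the control of that overexpression. All cells were wild type before transfection with 1000 ng of plasmid, and were grown on gelatin in 15% serum with 10 ng/ml LIF. Selection began 24 h after transfection and lasted 7 days in 2 ug/ml puromycin for the knockdown arm and 10 days in 500 ug/ml G418 for the overexpression arm. Monoclonal cells were then picked, so a group may be 1 clone, and nothing says that its 2 libraries came from separate clones or cultures. The p-values therefore measure the spread between these libraries, which may be technical.

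The libraries held between 17392177 and 22381633 reads counted in genes. Summed over 9 Zscan4 genes, the normalised read count was 97.4 and 136 in KD Zscan4 cells, against 3752 and 3336 in KD control cells. It was 5878 and 5311 in OE Zscan4 cells, against 360 and 389 in OE control cells, so every group followed its label. Zscan4c itself had 11.2 and 15.5 in KD Zscan4 cells against 575 and 566 in KD control cells, and 1074 and 981 in OE Zscan4 cells against 60.1 and 75.2 in OE control cells. All 8 listed ES cell markers (among them Pou5f1, Nanog and Sox2) were detected in both arms. Their summed value was 133522 to 139331 in KD Zscan4 cells against 135802 to 136496 in KD control cells, and 157578 to 158763 in OE Zscan4 cells against 115916 to 119373 in OE control cells. The 7 primitive endoderm markers summed to 211 to 259 in KD Zscan4 cells against 2547 to 2739 in KD control cells, and to 293 to 306 in OE Zscan4 cells against 481 to 497 in OE control cells. The 3 neural markers summed to 5230 to 5448 in KD Zscan4 cells against 3781 to 3801 in KD control cells, and to 4970 to 5152 in OE Zscan4 cells against 2297 to 2372 in OE control cells. Measured fibroblast markers summed to 396 to 451 in KD Zscan4 cells against 268 to 304 in KD control cells (5 of 5), and to 329 to 353 in OE Zscan4 cells against 823 to 837 in OE control cells (4 of 5, without Col3a1). Trophectoderm markers, 3 of 4 in each arm, summed to 523 to 551 in KD Zscan4 cells against 874 to 892 in KD control cells, and to 422 to 443 in OE Zscan4 cells against 443 to 572 in OE control cells. The 2-cell-like list, which holds Zscan4 genes itself, summed to 44.7 to 66.0 in KD Zscan4 cells against 1649 to 1700 in KD control cells (7 of 7), and to 2603 to 2831 in OE Zscan4 cells against 187 to 213 in OE control cells (6 of 7). The part of these cell-state markers in the results was not tested. Some chromosomes moved as a whole, counting their protein-coding genes that averaged 20 or more. The 5 genes of chromosome Y were all lower in both arms, with a median log2 fold change of -2.20 in KD Zscan4 cells and -6.02 in OE Zscan4 cells. Chromosome 1 had a median of 0.56 in the knockdown arm, chromosome 11 had -0.34 in the overexpression arm, and the 13 mitochondrial genes had 0.18 and 0.43. What moved these chromosomes was not tested, and where a group is 1 clone, clone and treatment cannot be told apart. None of the Zfp800 to Zfp999 genes lies on chromosome 1 or Y, and Zfp830, Zfp867 and Zfp879 lie on chromosome 11.

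Joined where neighbouring starts were at most 2 Mb apart, 63 of the 90 genes fell into 9 clusters of 3 or more, and 27 lay outside them. The largest was on chromosome 4 (chr4:145510759-147848366, mm10), with 16 genes. The chromosome 2 cluster (chr2:174643534-178078476) and the first chromosome 17 cluster (chr17:21567008-22867134) had 11 genes each, and the chromosome 8 cluster (chr8:69209038-69791178) had 6. The second chromosome 7 cluster (chr7:42579783-43618285) had 5 genes, and the other 4 clusters had 3 or 4. Clusters called first and second are counted from the start of their chromosome. A KRAB A-box pattern was found by script in 73 of the 90 proteins. The median number of C2H2 fingers was 11 in the chromosome 4, chromosome 2 and second chromosome 7 clusters.

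The sequences upstream of neighbouring genes were alike in some clusters, both where genes were called higher in OE Zscan4 cells and where none was. RefSeq's GRCm38.p6 table gave a window of 250 bases before the transcription start for 77 of the genes. The pairwise identity of these windows had a median of 69.5% within the chromosome 4 cluster over 45 pairs, 76.1% within the chromosome 2 cluster over 36 pairs, and 58.6% within the second chromosome 7 cluster over 10 pairs. Over the 2757 pairs of genes not in the same cluster, which include genes outside the clusters, the median was 49.8%. The chromosome 2 windows were thus the most alike, with pairs of up to 100%, while 0 of 10 genes there were called higher in OE Zscan4 cells by limma, edgeR or DESeq2. Those 10 genes had a median log2 fold change of 0.48, with 7 above 0, and several had few reads, where a call is hard to reach. On chromosome 13 the windows of Zfp808 and Zfp935, both called higher, were 69.1% identical. The windows below were chosen after the expression values were seen. The 3 from chromosome 7 are the most alike of the 5 in their cluster. They belong to Zfp936 and Zfp977, which had the largest rises of that cluster, and to Zfp976, which had the smallest. Capitals mark the longest run that all 3 share, 30 bases.
Zfp936 (chr7:43177340-43177589, plus strand): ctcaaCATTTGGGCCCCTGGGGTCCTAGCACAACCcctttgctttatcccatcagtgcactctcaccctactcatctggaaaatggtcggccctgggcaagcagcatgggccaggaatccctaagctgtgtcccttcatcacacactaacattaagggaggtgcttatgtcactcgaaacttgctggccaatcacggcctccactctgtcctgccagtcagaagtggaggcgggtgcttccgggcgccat
Zfp977 (chr7:42592546-42592795, minus strand): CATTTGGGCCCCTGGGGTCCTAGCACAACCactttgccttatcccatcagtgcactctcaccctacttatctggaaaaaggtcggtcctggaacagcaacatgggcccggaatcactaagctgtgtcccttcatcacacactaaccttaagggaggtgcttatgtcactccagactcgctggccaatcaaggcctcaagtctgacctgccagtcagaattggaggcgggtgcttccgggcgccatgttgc
Zfp976 (chr7:42642605-42642854, minus strand): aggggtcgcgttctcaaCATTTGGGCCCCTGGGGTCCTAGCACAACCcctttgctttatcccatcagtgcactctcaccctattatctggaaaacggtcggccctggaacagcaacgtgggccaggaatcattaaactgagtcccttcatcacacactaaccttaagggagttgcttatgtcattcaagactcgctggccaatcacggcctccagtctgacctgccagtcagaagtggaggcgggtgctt
Zfp936 and Zfp977 were 88.2% identical over this window, Zfp936 and Zfp976 83.6%, and Zfp976 and Zfp977 81.6%. Zfp975, which lies between Zfp976 and Zfp936 and rose more than Zfp976, had a window 64.3% identical to that of Zfp977 and 60.9% to that of Zfp936, and the lowest identity in the cluster was 49.2%. The RefSeq start of Zfp936 lies 63361 bases inside the outermost GENCODE start of the gene. The 3 chromosome 4 windows below belong to Zfp979, Zfp980 and Zfp987, which all rose in OE Zscan4 cells. Capitals mark their longest shared run, 22 bases.
Zfp979 (chr4:147642509-147642758, minus strand): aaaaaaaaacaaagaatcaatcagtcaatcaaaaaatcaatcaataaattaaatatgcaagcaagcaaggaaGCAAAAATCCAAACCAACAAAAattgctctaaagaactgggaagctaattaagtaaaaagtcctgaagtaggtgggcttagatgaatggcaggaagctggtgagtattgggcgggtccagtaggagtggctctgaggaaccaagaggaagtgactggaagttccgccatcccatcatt
Zfp980 (chr4:145670447-145670696, plus strand): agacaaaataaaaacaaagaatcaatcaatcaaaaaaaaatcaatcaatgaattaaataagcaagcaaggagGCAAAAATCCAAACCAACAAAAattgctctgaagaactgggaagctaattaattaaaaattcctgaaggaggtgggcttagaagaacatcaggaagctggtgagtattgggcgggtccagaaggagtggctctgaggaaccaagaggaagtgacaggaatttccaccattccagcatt
Zfp987 (chr4:146097062-146097311, plus strand): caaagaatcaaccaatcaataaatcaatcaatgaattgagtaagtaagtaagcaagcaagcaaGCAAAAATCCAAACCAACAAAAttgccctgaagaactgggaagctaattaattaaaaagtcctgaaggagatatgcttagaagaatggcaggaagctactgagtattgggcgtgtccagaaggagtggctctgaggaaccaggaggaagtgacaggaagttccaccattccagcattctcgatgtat
Zfp979 and Zfp980 were 89.0% identical, Zfp979 and Zfp987 80.7%, and Zfp980 and Zfp987 79.9%. The window of Zfp982, which was not called (adjusted p = 0.27 by limma), was as alike, with 87.4% identity to Zfp987 and 83.5% to Zfp979. The window of Zfp951, the gene with the largest change in KD Zscan4 cells, is shown because that gene lies in none of the clusters.
Zfp951 (chr5:104860069-104860318, minus strand): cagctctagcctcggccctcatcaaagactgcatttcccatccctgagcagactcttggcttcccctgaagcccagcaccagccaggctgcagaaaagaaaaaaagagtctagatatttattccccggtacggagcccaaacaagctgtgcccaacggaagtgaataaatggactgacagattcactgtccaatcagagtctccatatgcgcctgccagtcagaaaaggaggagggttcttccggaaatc
The motif TGCACAC, read on either strand as TGCACAC or GTGTGCA, is known to be bound by Zscan4 in vitro. It was in 2 of the 77 windows (2.60%), those of Zfp866 and Zfp879, and in 944 of 27025 windows of all genes (3.49%). The motif was searched for after the expression values were seen, and a match is a string of letters only.

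Overexpression of Zscan4c was accompanied by higher levels of close to 1 in every 2 of these genes. Of 87 measured, 42 rose in OE Zscan4 cells (48.3%) and 1 fell, by limma on log2(value + 1) with a Benjamini-Hochberg adjusted p of at most 0.05 over all genes of the arm, which is the meaning of a call throughout. Among all 18292 genes 22.3% were called higher and 22.1% lower, 44.3% in all. The median log2 fold change of the 87 was 0.55, against -0.0022 for all genes tested. Both OE Zscan4 libraries lay above both OE control libraries for 53 of the 87 and below them for 7, against 35.7% and 35.5% of all genes. The other numbered Zfp genes, Zfp1 to Zfp799, had 109 of 264 called higher (41.3%) and 20 lower, with a median of 0.27. The count of 42 came to 27 with DESeq2, to 31 without OE control replicate 1 and to 47 without OE control replicate 2, and the median to 0.29 without OE control replicate 1. In these bulk samples, more cells that express a gene and more RNA per cell cannot be told apart.

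**Figure D1:**
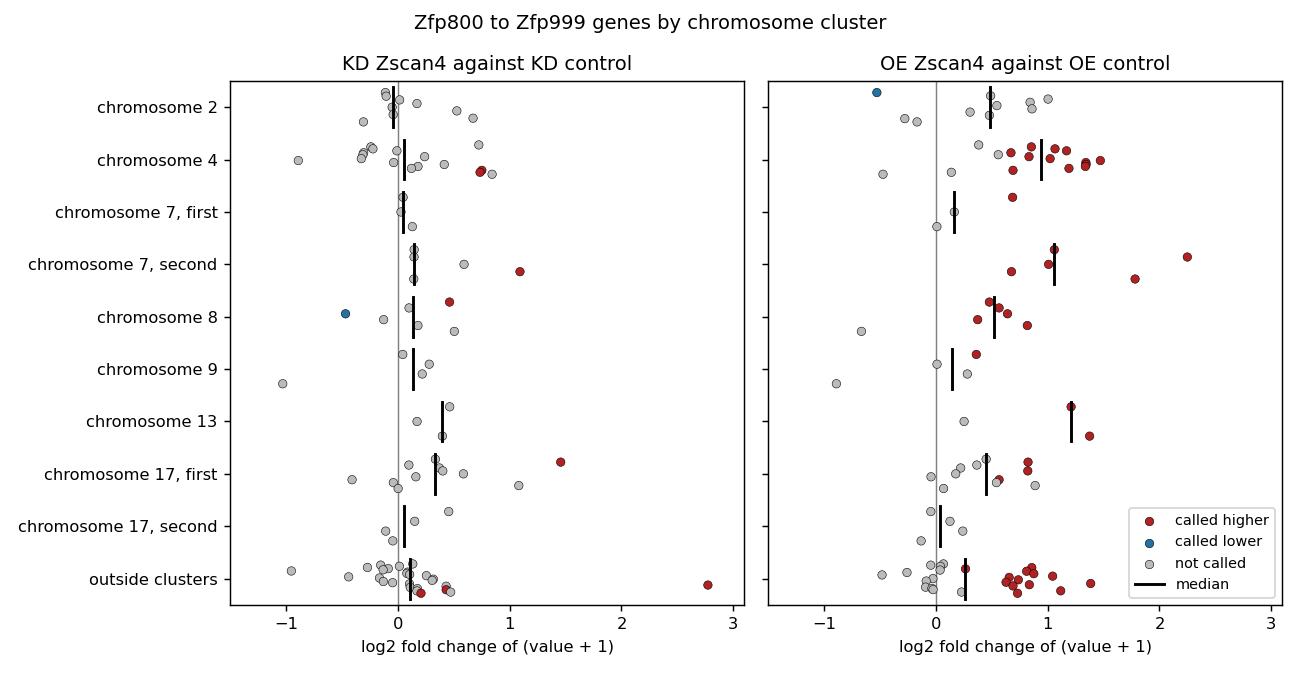
Log2 fold change of each Zfp800 to Zfp999 gene in KD Zscan4 cells against KD control cells (left) and OE Zscan4 cells against OE control cells (right), by chromosome cluster; each point is 1 gene, coloured by its limma call, and the vertical bar is the cluster median. In the overexpression arm the medians of the chromosome 4 cluster (0.94) and the second chromosome 7 cluster (1.06) lie far right of 0, and in the knockdown arm all but a few points are not called.

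All 5 genes of the second chromosome 7 cluster rose in OE Zscan4 cells, with a median log2 fold change of 1.06. Zfp936 (chr7:43114229-43192109) had 509 and 469 normalised reads in OE Zscan4 cells, against 80.1 and 130 in OE control cells. The groups lay far apart, and the log2 fold change was 2.25 (SE 0.168, adjusted p = 1.5e-08 by limma), the largest among the 87. Zfp977 (chr7:42579783-42592547) had 110 and 96.8 in OE Zscan4 cells, against 28.6 and 29.9 in OE control cells. Its groups did not overlap either, and the log2 fold change was 1.78 (SE 0.222, adjusted p = 5.5e-06 by limma). Zfp819 (chr7:43607169-43618285), which has been linked to repression of retroelements in pluripotent cells through Trim28, had 385 and 392 in OE Zscan4 cells, against 179 and 193 in OE control cells. The 2 libraries of each group were close together, with a log2 fold change of 1.06 (SE 0.112, adjusted p = 8.6e-07 by limma). Zfp975 rose by a log2 fold change of 1.01 and Zfp976 by 0.68. The call of Zfp976 was lost without OE control replicate 1, without OE Zscan4 replicate 1 and with DESeq2 (largest adjusted p of its alternatives 0.16).

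In the chromosome 4 cluster 12 of 16 genes rose in OE Zscan4 cells, with a median log2 fold change of 0.94, or 0.88 above the median of chromosome 4. Zfp979 (chr4:147611937-147642513) had 1266 and 1189 normalised reads in OE Zscan4 cells, against 444 and 773 in OE control cells. Its 2 control libraries differed more from each other than its OE Zscan4 libraries did, and the log2 fold change was 1.07 (SE 0.156, adjusted p = 3.1e-05 by limma). Zfp990 (chr4:145510759-145539188) had 834 and 876 in OE Zscan4 cells, against 294 and 476 in OE control cells, a log2 fold change of 1.19 (SE 0.146). Again the groups did not overlap and replicate 2 was the higher control. Zfp988 (chr4:147305674-147333734) had 431 and 394 in OE Zscan4 cells, against 136 and 192 in OE control cells. It had the smallest p of the cluster (log2 fold change 1.34, SE 0.141, adjusted p = 8.1e-07 by limma). Zfp987, with 183 and 183 in OE Zscan4 cells against 57.2 and 89.6 in OE control cells, and Zfp989, with 80.8 and 90.2 against 26.7 and 41.2, both reached 1.34. Zfp980 rose by 1.17 and Zfp986, at 40.4 and 25.4 reads in OE Zscan4 cells against 6.67 and 17.5 in OE control cells, by 1.47. The call of Zfp986 was lost without OE control replicate 1 (among others; largest adjusted p 0.115), and the other genes named here kept theirs in every alternative run. The 4 genes of the cluster that were not called were Zfp992, Zfp993, Zfp982 and Zfp933. Of 5 measured protein-coding genes inside the cluster that are not numbered Zfp800 to Zfp999, 4 were called higher, with a median of 1.27.

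Reads of several chromosome 4 genes are hard to tell apart. Of the transcript 50-mers of Zfp987, 89.0% also occurred in transcripts of another gene, as did 86.4% for Zfp986 and 71.3% for Zfp980. The share was 68.1% for Zfp988, 67.9% for Zfp989, 29.1% for Zfp990 and 27.1% for Zfp979. For Zfp993 and Zfp991 of the same cluster it was 86.8% and 82.2%. How the counting treated reads that fit several places is not given in the sources used here, so the values of single genes above 50% are uncertain. Genes that shared under 10% of their 50-mers had 21 of 44 called higher in OE Zscan4 cells, with a median log2 fold change of 0.37. Those that shared 10 to 50% had 12 of 24 (median 0.66), and those that shared at least 50% had 9 of 19 (median 0.84).

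**Figure D2:**
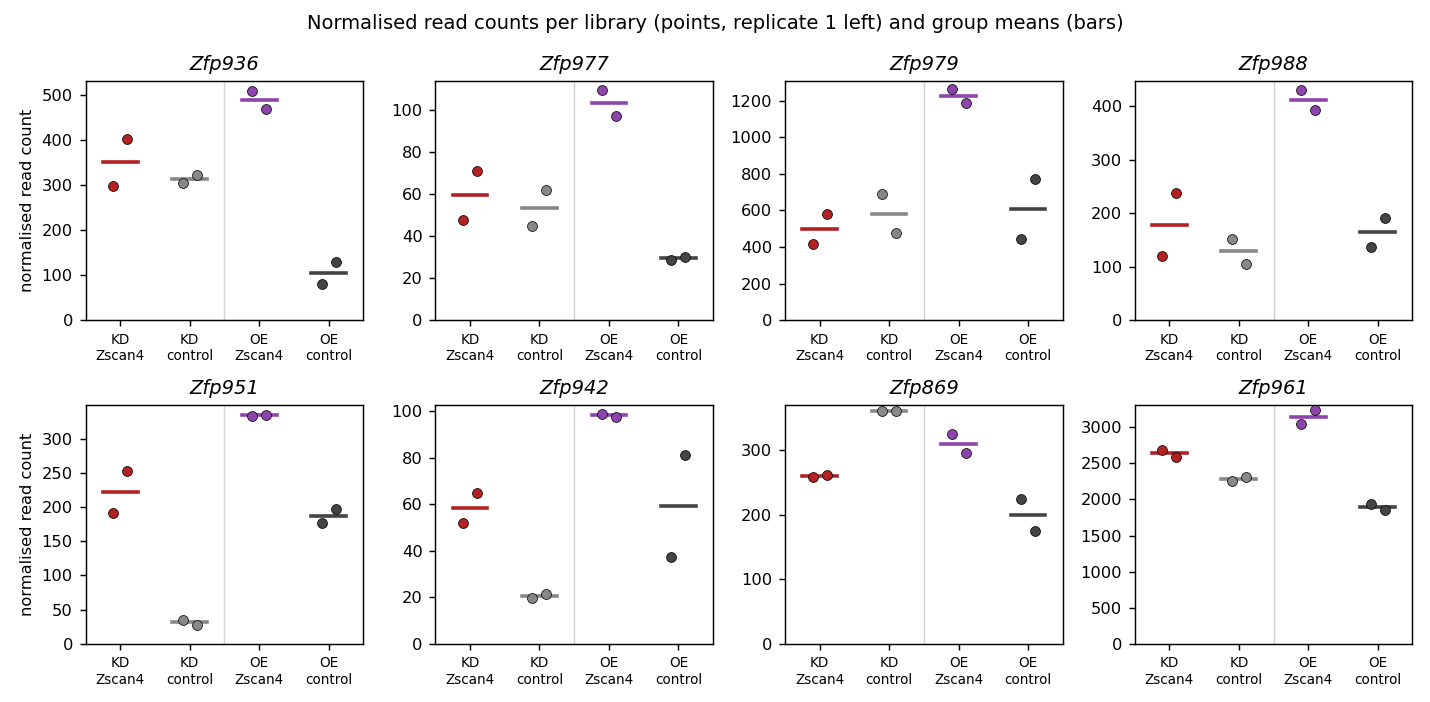
Normalised read count of 8 of the genes in each library (points, replicate 1 left) with the group mean (bar), in the order KD Zscan4, KD control, OE Zscan4, OE control; the 2 arms were scaled separately, so levels compare within an arm only. Zfp936 and Zfp977 are high in both OE Zscan4 libraries and level in the knockdown arm, Zfp951 is far higher in both KD Zscan4 libraries, and Zfp869 is lower in KD Zscan4 cells and higher in OE Zscan4 cells than in the controls.

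In the chromosome 8 cluster 5 of 6 genes rose in OE Zscan4 cells (median 0.52), or 3 with DESeq2. Zfp868 (chr8:69610857-69625548) had 498 and 515 normalised reads in OE Zscan4 cells, against 338 and 346 in OE control cells, a log2 fold change of 0.56 (SE 0.0946, adjusted p = 0.00011 by limma). The replicates differed little beside the gap between groups. Zfp964, the exception, had 26.6 and 22.5 in OE Zscan4 cells against 42 and 37.1 in OE control cells, and was not called (adjusted p = 0.070 by limma). On chromosome 13, Zfp808 had 413 and 345 in OE Zscan4 cells against 114 and 231 in OE control cells, a log2 fold change of 1.21 (SE 0.21) that was not called with DESeq2 (adjusted p = 0.066). Its neighbour Zfp935 was also called, but its annotated exons lie wholly within those of other genes and its reads cannot be assigned.

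The first chromosome 17 and the chromosome 2 clusters gave few calls. In the first chromosome 17 cluster 3 of 11 were called higher, Zfp942, Zfp945 and Zfp948, with a median of 0.45. None of the 11 was called without OE control replicate 1 or without OE Zscan4 replicate 1, 1 was called without OE Zscan4 replicate 2, and 6 were without OE control replicate 2. DESeq2 called 0 of them, and the median came to 0.22 without OE control replicate 1. Zfp945 had 165 and 133 in OE Zscan4 cells, against 57.2 and 122 in OE control cells. In the chromosome 2 cluster the median was 0.48, but limma called 0 of 10 higher, as did edgeR and DESeq2, and 0 had an unadjusted p under 0.05 in that direction. Without OE control replicate 2, 1 was called higher. The median came to 0.21 without OE control replicate 1, to 0.29 without OE Zscan4 replicate 1, and to -0.17 over the 5 genes with a mean of at least 20. The 1 gene called lower was Zfp931 (chr2:178067695-178078476), with 70.2 and 82.7 normalised reads in OE Zscan4 cells against 113 and 108 in OE control cells, a log2 fold change of -0.53 (SE 0.179, adjusted p = 0.023 by limma). It was the only one of the 87 called lower in OE Zscan4 cells, and the call was lost without OE control replicate 1, without OE Zscan4 replicate 1 and with DESeq2. Of the other 9, Zfp965, Zfp966, Zfp967, Zfp968 and Zfp969 had normalised read counts between 8.46 and 21.3 in OE Zscan4 libraries, where the counting error alone is large, and Zfp967 and Zfp969 shared 100% of their 50-mers with Zfp968. The second chromosome 17 cluster had 0 calls among 4 genes by limma, edgeR or DESeq2, and 0 with an unadjusted p under 0.05 (median 0.04). Its smallest p was that of Zfp870, with 474 and 491 in OE Zscan4 cells and 464 and 421 in OE control cells. Zfp809 on chromosome 9, known for silencing murine leukaemia virus in ES cells by binding its proline primer binding site, had 323 and 318 in OE Zscan4 cells, against 211 and 295 in OE control cells. OE control replicate 2 lay close to the OE Zscan4 libraries, and the call (log2 fold change 0.36, SE 0.136, adjusted p = 0.038 by limma) was lost in 7 alternatives. In the first chromosome 7 cluster Zfp850 alone was called, with 717 and 779 in OE Zscan4 cells against 421 and 512 in OE control cells (log2 fold change 0.69, SE 0.0993).

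Outside the clusters 13 of 25 rose in OE Zscan4 cells, with a median of 0.26. That median came to 0.61 without OE control replicate 2 and 0.46 without OE Zscan4 replicate 2. It came to 0.22 without OE control replicate 1 and 0.29 without OE Zscan4 replicate 1. Over the 22 genes left without chromosomes 1, 11 and Y it was 0.64, and 12 were called higher. DESeq2 called 10 of the 25 higher, with a median of 0.27. Zfp961 (chr8:71951038-71993792), which had the highest level of these genes per kilobase of exon (582 normalised reads on average over the overexpression arm), had 3052 and 3244 normalised reads in OE Zscan4 cells, against 1943 and 1851 in OE control cells. Each pair of libraries was tight, with a log2 fold change of 0.73 (SE 0.0682, adjusted p = 2.1e-07 by limma). Zfp950 on chromosome 19 had 81.9 and 78.9 in OE Zscan4 cells, against 23.8 and 38.1 in OE control cells (log2 fold change 1.38, SE 0.257), and Zfp959 on chromosome 17 rose by 1.12. Zfp827, whose human counterpart ZNF827 recruits the NuRD complex to telomeres in cells that lengthen them by recombination, had 309 and 288 in OE Zscan4 cells, against 153 and 177 in OE control cells. The groups lay well apart (log2 fold change 0.86, SE 0.126, adjusted p = 3.0e-05 by limma). Zfp865 (chr7:5020376-5036768) had 699 and 700 in OE Zscan4 cells, against 400 and 396 in OE control cells, a log2 fold change of 0.81 (SE 0.0873), though 28.4% of its exonic bases overlap exons of other genes. Zfp932 (chr5:109996521-110010411), known to bind endogenous retroviral sequences together with its paralog Gm15446, had 156 and 199 in OE Zscan4 cells, against 89.6 and 139 in OE control cells. Its log2 fold change was 0.66 (SE 0.189, adjusted p = 0.0090 by limma), and the call was lost without OE control replicate 1 and without OE Zscan4 replicate 2. Zfp830, which mouse preimplantation embryos need, had 578 and 603 in OE Zscan4 cells, against 476 and 508 in OE control cells. Its log2 fold change of 0.26 (adjusted p = 0.022 by limma) became 0.60 when set against the median of its own chromosome 11, and was not called in 4 alternatives. Zfp800, with 87.2 and 97.7 in OE Zscan4 cells, lay between its 2 control libraries at 64.8 and 119.

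Few of the same genes changed in KD Zscan4 cells. In the knockdown arm 87 were measured, of which 8 rose in KD Zscan4 cells (9.20%) and 1 fell (1.15%), against 17.2% and 18.5% of all 17938 genes, or 35.7% in all. The median log2 fold change was 0.13, against 0.0078 for all genes tested. Both KD Zscan4 libraries lay above both KD control libraries for 26 of the 87 and below them for 6, against 34.0% and 33.8% of all genes. Of Zfp1 to Zfp799, 23 of 263 were called higher and 41 lower (16 and 26 with DESeq2), with a median of -0.034. The counts turned on single libraries. Without KD Zscan4 replicate 1, 19 were called higher and 1 lower, with a median of 0.28. Without KD Zscan4 replicate 2, 6 were called higher and 10 lower, with a median of -0.023.

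Zfp951 (chr5:104813169-104860070) stood apart from the rest. It had 192 and 252 normalised reads in KD Zscan4 cells, against 34.9 and 28.1 in KD control cells. The KD Zscan4 libraries were both far above the controls, with a log2 fold change of 2.77 (SE 0.198, adjusted p = 8.8e-07 by limma), and only 1.63% of its transcript 50-mers occurred in other genes. In the overexpression arm Zfp951 also rose, with 334 and 334 in OE Zscan4 cells against 177 and 197 in OE control cells (log2 fold change 0.84, SE 0.116, adjusted p = 1.8e-05 by limma). Its level was thus higher in both manipulated groups than in the control of its arm.

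Zfp942 (chr17:21926960-21962464) had 51.8 and 65.0 in KD Zscan4 cells, against 19.7 and 21.3 in KD control cells, a log2 fold change of 1.46 (SE 0.263, adjusted p = 0.0011 by limma). In the overexpression arm it had 98.9 and 97.7 in OE Zscan4 cells, against 37.2 and 81.4 in OE control cells, where replicate 2 of the control lay close to the OE Zscan4 libraries and the call (log2 fold change 0.82) was lost without OE control replicate 1, among others. Zfp976 had 99.4 and 138 in KD Zscan4 cells, against 62.7 and 47.2 in KD control cells (log2 fold change 1.09, SE 0.214, adjusted p = 0.0019 by limma). Both genes were higher in both KD Zscan4 libraries than in either control. Of the chromosome 4 cluster, Zfp991 (log2 fold change 0.75) and Zfp992 were called higher. Zfp992 (chr4:146449023-146470292) had 317 and 346 in KD Zscan4 cells, against 227 and 173 in KD control cells (log2 fold change 0.73, SE 0.132, adjusted p = 0.0010 by limma). The call of Zfp991 was lost without KD Zscan4 replicate 2 and with DESeq2 (largest adjusted p 0.077), that of Zfp992 in no alternative.

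Zfp866 on chromosome 8 had 509 and 509 in KD Zscan4 cells, against 359 and 380 in KD control cells (log2 fold change 0.46, SE 0.0836, adjusted p = 0.0011 by limma). Zfp961 rose by 0.21 (SE 0.0537, adjusted p = 0.010 by limma), with 2687 and 2592 in KD Zscan4 cells against 2258 and 2316 in KD control cells, and lost its call without KD control replicate 1. Zfp958 passed narrowly (log2 fold change 0.43, adjusted p = 0.0499 by limma) and lost its call in 7 alternatives. The gene that fell was Zfp869 (chr8:69706332-69710724), with 259 and 262 in KD Zscan4 cells against 361 and 361 in KD control cells. Its log2 fold change was -0.47 (SE 0.0941, adjusted p = 0.0022 by limma), and in the overexpression arm it rose, with 324 and 295 in OE Zscan4 cells against 224 and 175 in OE control cells (log2 fold change 0.64, SE 0.131, adjusted p = 0.00070 by limma). It was the only one of the genes called in opposite directions in the 2 arms. Zfp866, Zfp942, Zfp951, Zfp961, Zfp976 and Zfp991 were called higher in both, and 41 of the 86 genes in both tables were called in neither.

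In the clusters where no gene was called in KD Zscan4 cells, the smallest p belonged to Zfp972 on chromosome 2, Zfp811 in the second chromosome 17 cluster, Zfp846 on chromosome 9, Zfp974 in the first chromosome 7 cluster and Zfp808 on chromosome 13. Of these Zfp811 came nearest to a call, with 84.2 and 96.1 in KD Zscan4 cells against 64.5 and 66.3 in KD control cells (adjusted p = 0.069 by limma). Zfp809 had 237 and 322 in KD Zscan4 cells and 253 and 284 in KD control cells, Zfp819 had 288 and 318 against 248 and 302, and Zfp830 had 578 and 526 against 570 and 602. The groups overlapped in each of these 3. Zfp827 had 290 and 355 in KD Zscan4 cells against 404 and 373 in KD control cells, without overlap, and missed the threshold (log2 fold change -0.27, adjusted p = 0.072 by limma).

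The effect of the overexpression minus that of the knockdown was tested in 1 fit of all 8 libraries, over the 17409 genes in both tables. It was called higher for 24 of 86 of the Zfp genes (27.9%) and lower for 4, against 22.9% and 21.8% of all genes, or 44.7% in all. The median difference was 0.33 on the log2 scale, and 9 of the 24 were in the chromosome 4 cluster. Of Zfp1 to Zfp799, 87 of 260 were called higher (33.5%) and 17 lower, with a median difference of 0.29. Among the 86, the smallest p of the difference belonged to Zfp951 and the 7 genes given next. Zfp936 differed by 2.10 (SE 0.25, adjusted p = 5.1e-06 by limma): its KD Zscan4 libraries had 298 and 402 normalised reads against 305 and 321 in KD control cells. Zfp977 differed by 1.64 (SE 0.342), Zfp869 by 1.11 (SE 0.168), Zfp827 by 1.13 (SE 0.169), Zfp819 by 0.91 (SE 0.162), Zfp865 by 0.72 (SE 0.107) and Zfp961 by 0.52 (SE 0.0824). These 7 calls held in every alternative run. Several other genes differed by more than Zfp819, Zfp865 or Zfp961 with a larger error, among them Zfp882 (1.48, SE 0.325), Zfp987 (1.38, SE 0.317), Zfp985 (1.35, SE 0.367), Zfp979 (1.29, SE 0.286) and Zfp950 (1.28, SE 0.366), all called. The largest value, 2.36 for Zfp986, had an SE of 1.01 and was not called (adjusted p = 0.070 by limma). The 4 genes with the lower effect in the overexpression arm were Zfp951 (-1.94, SE 0.226), Zfp993 (-1.32), Zfp964 (-1.17) and Zfp992 (-0.60). The call of Zfp951 held throughout, and those of Zfp993, Zfp964 and Zfp992 were each lost in at least 2 alternatives.

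**Figure D3:**
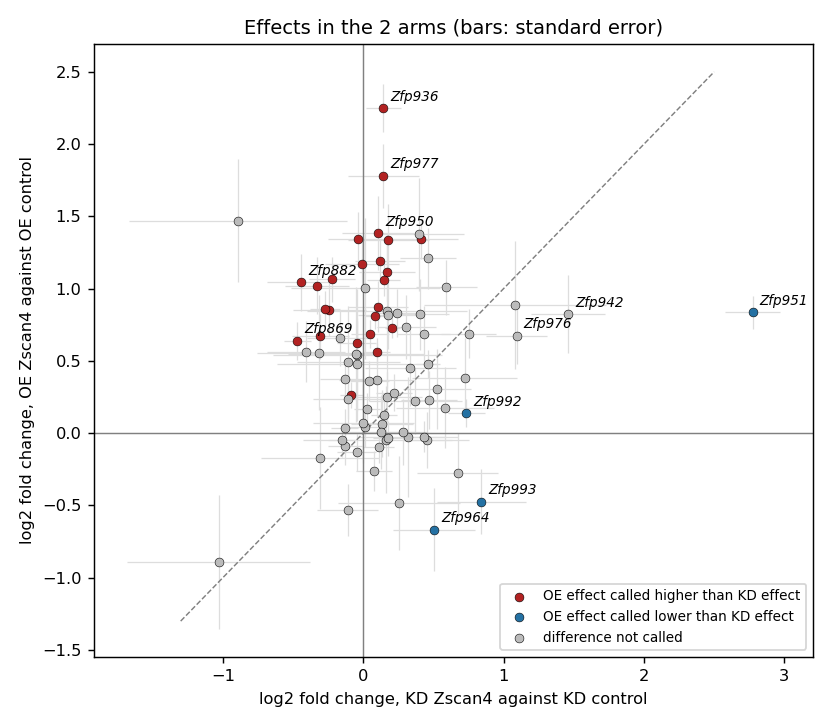
Log2 fold change of OE Zscan4 against OE control cells (vertical axis) and of KD Zscan4 against KD control cells (horizontal axis) for the 86 genes in both tables, with standard errors; colour gives the limma call on the difference of the 2 effects and the dashed line marks equal effects. The 24 red points lie above the line, led by Zfp936 and Zfp977 among those called, and Zfp951 lies alone at the right.

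The clusters also moved between the 2 libraries of a group. In KD Zscan4 cells 15 of the 16 chromosome 4 genes were higher in replicate 2 than in replicate 1, with a median log2 difference of 0.75. In KD control cells 15 of 16 were lower in replicate 2 (median -0.32), and in OE control cells 15 of 16 were higher (median 0.62). In OE Zscan4 cells 7 were higher and 9 lower (median -0.091). The scaling of the libraries holds the median of all genes almost level between them. Between the same libraries that median moved by amounts from -0.020, in OE control cells, to 0.0059, in KD control cells. The first chromosome 17 cluster moved in the same directions, by 0.76 in KD Zscan4 cells, -0.41 in KD control cells, -0.017 in OE Zscan4 cells and 0.80 in OE control cells. In the same order of groups, the second chromosome 7 cluster moved by 0.47, 0.079, -0.18 and 0.66. All 5 of its genes were higher in replicate 2 in KD Zscan4 cells and in OE control cells. The chromosome 2 cluster moved by 0.59, 0.29, -0.40 and 0.44, and the 3 chromosome 13 genes by 0.58, -0.30, 0.020 and 0.84. The chromosome 8 cluster moved by 0.094, -0.26, -0.043 and -0.18. Genes outside the clusters moved less than the chromosome 4 cluster, by 0.16, 0.022, 0.0026 and 0.12 in those groups. The medians were 0.67, -0.13, -0.29 and 0.64 for genes sharing at least 50% of their 50-mers, and 0.17, 0.036, -0.011 and 0.098 for those sharing under 10%.

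The swings of the chromosome 4 cluster were larger than its median effect in the knockdown arm (0.056) and smaller than that in the overexpression arm (0.94). Set against the mean of the arm's controls, the median chromosome 4 gene stood at -0.30 and 0.50 in the 2 KD Zscan4 libraries. It stood at 0.95 and 1.04 in the OE Zscan4 libraries, above OE control replicate 2 at 0.31. Without OE control replicate 1, 11 of the 16 were still called higher in OE Zscan4 cells (median 0.63), and without OE control replicate 2, 12 were called higher and 1 lower (median 1.34). For the knockdown, 6 of 16 were called higher without KD Zscan4 replicate 1, and 1 higher and 3 lower without KD Zscan4 replicate 2. What moved these genes between replicates was not tested. The transcripts of the 90 genes had a median GC content of 39.7%, and those of the chromosome 4 cluster 36.3%, against 48.7% for all protein-coding genes. The longest transcript per gene had a median of 2806.5 bases over the 90 genes and 2780 in the chromosome 4 cluster, against 2882 for all protein-coding genes. Other protein-coding genes below 45% GC moved by a median of 0.048 between the KD Zscan4 replicates and 0.023 between the OE control replicates, and those that also had a transcript of at least 3000 bases by 0.073 and 0.056. Across these other genes, which share their libraries and are not independent, the replicate difference had a Spearman correlation with transcript length of 0.246 in KD Zscan4 cells, 0.0654 in KD control cells, -0.0641 in OE Zscan4 cells and 0.335 in OE control cells. The 2 higher values belong to the groups where the chromosome 4 cluster was higher in replicate 2. With GC content it was -0.189, 0.124, -0.158 and -0.162 in the same groups. Between OE Zscan4 and OE control cells the other protein-coding genes below 45% GC moved by a median of 0.073. The 77 Zfp genes with a mean of at least 20 moved by 0.48. The part of GC content and transcript length in the result was not tested further.

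**Figure D4:**
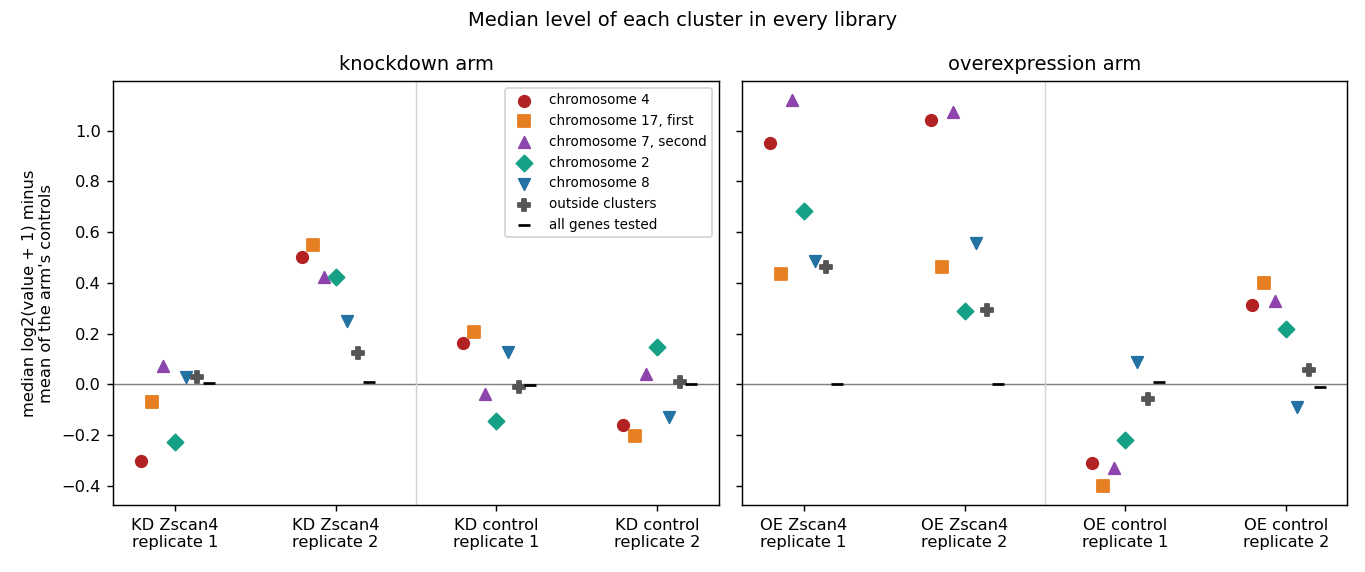
Median over genes of log2(value + 1) minus the mean of the arm's 2 control libraries, for each library of the knockdown arm (left) and the overexpression arm (right), in the 5 clusters with 5 or more genes, the genes outside clusters and all genes tested. The medians of these 5 clusters lie above 0 in both OE Zscan4 libraries; of the 4 smaller clusters, not drawn, the second chromosome 17 cluster (-0.085) and the chromosome 9 cluster (-0.017) lay below 0 in OE Zscan4 replicate 1. In the knockdown arm the chromosome 4 median is -0.30 in KD Zscan4 replicate 1 and 0.50 in replicate 2.

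Genes with and without the KRAB pattern were both among those that rose in OE Zscan4 cells. Of those with it, 34 of 73 were called higher in OE Zscan4 cells (46.6%, median 0.55) and 8 of 72 in KD Zscan4 cells. Of those without it, 8 of 14 were called higher in OE Zscan4 cells (57.1%, median 0.41) and, of 15 in KD Zscan4 cells, 1 was called lower and 0 higher by limma, edgeR or DESeq2 (1 was higher at an unadjusted p under 0.05). With DESeq2 the counts in OE Zscan4 cells were 22 of 73 and 5 of 14. Without OE control replicate 1 the median of those without the pattern came to 0.22, and 5 of the 14 were called higher. Of those with the pattern, 19 of 72 were called higher in KD Zscan4 cells without KD Zscan4 replicate 1, and 6 higher and 6 lower without KD Zscan4 replicate 2. The pattern is strict, and a protein without it may still carry a KRAB domain that differs from it. The difference between these classes was not tested.

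Genes of a chosen list for the repression machinery that KRAB zinc finger proteins use were more often called higher than lower in OE Zscan4 cells, and more often lower than higher in KD Zscan4 cells. The list also takes in DNA methylation genes, Atrx, Daxx, Sumo2 and Zfp57. Its lowest group mean was 522 normalised reads, for Fam208a in KD control cells, a level where a call is easier to reach than with few reads. Of 27 measured, 16 rose in OE Zscan4 cells (13 with DESeq2; median log2 fold change 0.29), where 22.3% of all genes were called higher and 22.1% lower, and 0 fell by limma, edgeR or DESeq2 or at an unadjusted p under 0.05. Of the same 27, 2 rose and 16 fell in KD Zscan4 cells (median -0.21), where 17.2% of all genes were called higher and 18.5% lower. The effect in the overexpression arm was called higher than that in the knockdown arm for 20 of the 27, against 22.9% of all genes, and lower for 0 by any of these tests. Trim28, the corepressor bound by KRAB domains, averaged 46651 normalised reads in OE Zscan4 cells and 26718 in OE control cells (log2 fold change 0.80, SE 0.0751, adjusted p = 2.1e-07 by limma). It averaged 52885 in KD Zscan4 cells and 61121 in KD control cells (log2 fold change -0.21, SE 0.0516, adjusted p = 0.0076 by limma). Setdb1 rose by 0.46 in OE Zscan4 cells and had a log2 fold change of -0.01 in KD Zscan4 cells, which was not called. Smarcad1, a chromatin remodeller that binds Trim28, rose by 1.31 in OE Zscan4 cells, and the DNA methyltransferase gene Dnmt3a by 1.14. Zfp57, a KRAB zinc finger gene that protects methylation at imprinted loci, rose by 0.98 in OE Zscan4 cells and fell by 0.51 in KD Zscan4 cells. Dnmt3b, another DNA methyltransferase gene, fell by 1.36 in KD Zscan4 cells and rose by 0.29 in OE Zscan4 cells. Atf7ip, Dnmt1 and Dnmt3l fell by 0.62, 0.54 and 0.71 in KD Zscan4 cells and were not called in OE Zscan4 cells. The 2 genes called higher in KD Zscan4 cells were Atrx and Sumo2, with log2 fold changes of 0.46 and 0.17. In OE Zscan4 cells Atrx also rose, by 0.72, and Sumo2 was not called.

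Together the 87 Zfp genes made up a small part of each library. They took 0.101% and 0.0997% of the reads in OE Zscan4 cells, against 0.0671% and 0.0820% in OE control cells. In KD Zscan4 cells they took 0.0718% and 0.0856%, against 0.0735% and 0.0707% in KD control cells. The overexpression groups did not overlap, and the knockdown groups did.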

How the data were processed

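mRNA-seq libraries of 4 groups, 2 each, were analysed from 2 gene tables, 1 per arm. The tools listed in the submitters' processing notes are cutadapt, HISAT2 (build mm10), featureCounts and DESeq2. Versions, strand and the handling of multi-mapping reads are not given in the sources used here. The deposited values are a signal, read counts divided by size factors, and 100% came out as whole reads (within 0.01) when the library's step was taken as 1 read. Depth was 17392177 to 22381633 reads, and the libraries were amplified with 11 PCR cycles, so counts are not independent molecules.

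Gene names, types and coordinates came from GENCODE vM21, and upstream windows from RefSeq GRCm38.p6. Each arm was fitted on its whole table with limma 3.58.1 (trend) on log2(value + 1), R 4.3.3, and p-values were adjusted over all genes by Benjamini-Hochberg at 0.05. Fold changes on this scale understate those of genes with few reads. edgeR 4.0.16 (TMM and quasi-likelihood) and DESeq2 1.42.0 on the recovered reads, pseudocounts of 0.5 and 8, a mean of at least 20, a replicate block, each library left out, a fit of all 8 libraries, and the removal of chromosomes 1, 11 and Y, whose medians stood apart, were alternatives. The scripts were tested on simulated data. Biopython 1.88 aligned the windows. A 50-mer counted as shared where another gene's transcript held it on either strand.

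The genes named were, per comparison, the 12 largest rises and falls among called genes with a mean of at least 20 and separate groups, the gene with the smallest p in each cluster, the 8 differences between arms with the smallest p, the 6 highest means, and a fixed list (Zfp800, Zfp809, Zfp819, Zfp827, Zfp830, Zfp932, Zfp961, Zfp992). Others were named after their values were seen, as the rest of a count or cluster. The list's Zfp804a and Zfp804b carry a letter and were left out. The genes and lists were chosen with earlier results of these data known.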

Additional observations from a re-analysis of the deposited data

Results flagged for a closer look

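For 20 of the genes named, the effect of the overexpression and that of the knockdown differed by the limma test of the difference itself. The values are log2 fold changes of OE Zscan4 against OE control cells minus those of KD Zscan4 against KD control cells. In the second chromosome 7 cluster Zfp936 differed by 2.10, Zfp977 by 1.64 and Zfp819 by 0.91. In the chromosome 4 cluster Zfp987 differed by 1.38, Zfp979 by 1.29, Zfp980 by 1.18, Zfp989 by 1.16, Zfp990 by 1.07 and Zfp988 by 0.93, and Zfp992 by -0.60. In the chromosome 8 cluster Zfp869 differed by 1.11 and Zfp868 by 0.47, and in the first chromosome 7 cluster Zfp850 by 0.64. Outside the clusters Zfp950 differed by 1.28, Zfp827 by 1.13, Zfp959 by 0.95, Zfp865 by 0.72, Zfp961 by 0.52 and Zfp830 by 0.35, and Zfp951 by -1.94. The difference was not called in 7 alternatives for Zfp988 and for Zfp989, in 5 for Zfp830 and for Zfp980, in 4 for Zfp959, in 2 for Zfp850 and for Zfp992, and in 1 for Zfp990. The other 12 kept their call in every alternative run.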

How the results depend on the processing

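With DESeq2 on the recovered reads, 27 of the 87 genes were called in OE Zscan4 cells, 27 higher and 0 lower, and the difference between arms was called for 17, 15 higher and 2 lower. Leaving out 1 library at a time gave 8 to 20 calls in the knockdown arm (6 to 19 higher, 1 to 10 lower), 32 to 50 in the overexpression arm (31 to 47 higher, 0 to 3 lower), and 21 to 37 for the difference (17 to 33 higher, 2 to 5 lower). The median log2 fold change ranged from -0.023 to 0.28 in the knockdown arm and from 0.29 to 0.64 in the overexpression arm, lowest without OE control replicate 1. The replicate block gave 16 calls in the knockdown arm, 13 higher and 3 lower. The replicate numbers share only a number: same-numbered libraries did not deviate together across genes (correlation -0.059 in the knockdown arm and -0.039 in the overexpression arm), and there were 2 pairs. The cause of these changes was not tested beyond the fewer samples in a fit. In the knockdown arm 6 of 9 calls held in every alternative, in the overexpression arm 25 of 43, and for the difference 14 of 28. Over all named values and alternatives 1392 kept their direction and side of the threshold, 75 lost a call, 33 gained one and 49 values without a call moved. No called value changed sign. A gene with fewer than 20 reads gives a wide counting error, and 2 libraries a group limit every call.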
